A study of Mus musculus with 6 samples.

Results

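The first signals of lymphocyte antigen receptors are carried by a small set of kinases and adaptors, and 10 of their genes were followed across 3 subsets of common dendritic cell progenitors. These are bone marrow cells from which dendritic cells arise. The genes were Lck, Zap70, Lat, Cd247, Lax1, Blk, Blnk, Btk, Syk and Fyn. They were chosen by gene symbol, and all 10 were found among the 16135 genes listed in any of the sample tables. The libraries were polyA RNA sequencing of cells from the bone marrow of wildtype C57BL/6 mice, 6 to 8 weeks old. Flow cytometry had separated the cells by the surface proteins CD115, the product of the growth factor receptor gene Csf1r, and Ly6C, an antigen of monocytes and their precursors. They had been sorted into a CD115-Ly6C-, a CD115+Ly6C+ and a CD115+Ly6C- subset, each represented by 2 libraries, with between 17961541 and 19450329 expected counts per library. No agent or mutation was applied to any group. Whether paired libraries of a subset stem from different animals or sorts is not stated in the labels. Each p-value therefore measures only the spread between these libraries, which may be technical.

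In mature T cells, an engaged receptor is phosphorylated by the Src family kinase Lck on the ITAM motifs of its signaling chains, CD3ζ (Cd247) among them. The kinase ZAP-70 binds these motifs and phosphorylates the membrane scaffold LAT, on which downstream enzymes assemble. B cells use a parallel set, with the Src family kinases LYN, BLK and FYN, then SYK, the scaffold BLNK and the Tec family kinase BTK. SYK and BTK also serve Fc receptors, lectins and other receptors of myeloid cells.

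The 10 genes fell into a set of 7 that differed widely between the subsets and a set of 3 (Btk, Syk and Fyn) that differed little. By FPKM, 8 of the 10 (all but Btk and Syk) were highest in both CD115-Ly6C- libraries and lowest in both CD115+Ly6C+ libraries, with CD115+Ly6C- between them. The same order without overlap was seen in 17.6% of all genes tested. For Fyn the range was narrow, and its CPM (counts scaled to a common library total) overlapped between CD115-Ly6C- and CD115+Ly6C-. Expression is given as FPKM, fragments scaled to transcript length and sequencing depth. The FPKM of the 10 genes summed to 301 and 274 for CD115-Ly6C-, to 74.8 and 65.4 for CD115+Ly6C+, against 98.9 and 113 for CD115+Ly6C-. Tests used the quasi-likelihood F test of edgeR across all 12127 genes that passed a filter on low counts, and a gene was called at a Benjamini-Hochberg adjusted p under 0.05. All 10 genes passed this filter, although Cd247 and Lax1 did so only through the CD115-Ly6C- and CD115+Ly6C- libraries.

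Over CD115+Ly6C-, 8 of the 10 genes rose in CD115-Ly6C- and 0 fell, where 8.43% of all genes tested rose. The median log2 fold change was 1.96 over the 10 genes and 0.02 over all genes tested. Over CD115+Ly6C+, 9 of the 10 rose in CD115-Ly6C- and 0 fell, where 20.1% of all genes rose, with a median of 3.85 against 0.03 over all genes. Between the CD115+ subsets, 6 of the 10 fell in CD115+Ly6C+ over CD115+Ly6C- and 0 rose, where 4.34% of all genes fell, with a median of -1.56 against -0.01. This count of 6 came to 3 without any one of the 4 CD115+ libraries. Lck and Blnk were called in it under every alternative tried. Any 2 of these comparisons share 2 libraries, so they are not independent of each other. In bulk RNA, fewer cells of a type and less RNA per cell cannot be told apart.

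**Figure D1:**
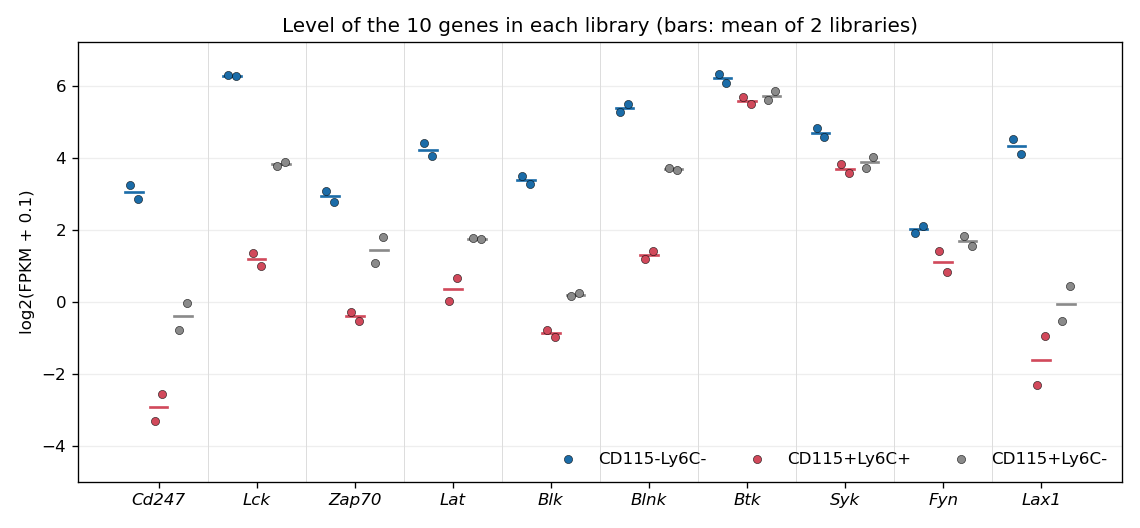
Expression of the 10 genes in each of the 6 libraries, as log2(FPKM + 0.1), with points for libraries and bars for the mean of 2. Lck, Zap70, Lat, Cd247, Lax1, Blk and Blnk are spread widely, highest in CD115-Ly6C- and lowest in CD115+Ly6C+, and Btk, Syk and Fyn stay within a narrow band. The lowest point, of Cd247, is a library with 0 counts.

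Lck, the Src family kinase that starts T cell receptor signaling (chr4:129548344-129573641 of GRCm38.p6, minus strand), was the most strongly expressed of the T cell genes. It was at 78.2 and 76.7 FPKM in the CD115-Ly6C- pair of libraries, at 2.47 and 1.9 FPKM in the CD115+Ly6C+ pair, against 13.5 and 14.6 FPKM in the CD115+Ly6C- pair. The 3 subsets did not overlap, and the CD115-Ly6C- libraries lay closest together. In CD115-Ly6C-, Lck was 31.1-fold higher than in CD115+Ly6C+ (log2 difference 4.96, SE 0.17, edgeR adjusted p = 1.59e-06). Over CD115+Ly6C- it was 5.08-fold higher (2.34, SE 0.14, edgeR adjusted p = 1.51e-04). Between the CD115+ subsets it fell in CD115+Ly6C+ (log2 difference -2.61, SE 0.16, edgeR adjusted p = 3.02e-04).

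Zap70, the Syk family kinase that docks on phosphorylated receptor chains (chr1:36761798-36782821, plus strand), was lower than Lck per length in every library. It was at 8.24 and 6.76 FPKM in the CD115-Ly6C- pair of libraries, at 0.72 and 0.59 FPKM in the CD115+Ly6C+ pair, against 2.01 and 3.4 FPKM in the CD115+Ly6C- pair. The order of the subsets was that of Lck, without overlap, and the CD115+Ly6C- libraries were farther apart than those of the other subsets. The mean transcript length that the files give for Zap70 ran from 2006 to 2378 bases between libraries, so FPKM and counts do not move in step for this gene. Its counts were 275 and 277 for CD115-Ly6C-, 29 and 23 for CD115+Ly6C+, against 86 and 118 for CD115+Ly6C-. Zap70 rose in CD115-Ly6C- over CD115+Ly6C+ (log2 difference 3.20, SE 0.30, edgeR adjusted p = 1.31e-04). Its rise over CD115+Ly6C- was smaller (1.36, SE 0.27, edgeR adjusted p = 0.0133), and adjusted p was 0.0891 without the first CD115+Ly6C- library and 0.0793 without the first CD115-Ly6C- library. It fell in CD115+Ly6C+ over CD115+Ly6C- (-1.84, SE 0.30, edgeR adjusted p = 0.0102), with an adjusted p of 0.0619 without the second CD115+Ly6C+ library.

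Lat, the membrane scaffold that ZAP-70 phosphorylates (chr7:126363827-126369705, minus strand), was at 20.9 and 16.5 FPKM in CD115-Ly6C- and at 0.92 and 1.47 FPKM in CD115+Ly6C+, against 3.31 and 3.21 FPKM in CD115+Ly6C-. All libraries of the 3 subsets lay apart. Lat rose in CD115-Ly6C- over CD115+Ly6C+ (log2 difference 3.75, SE 0.31, edgeR adjusted p = 7.79e-05) and over CD115+Ly6C- (2.40, SE 0.28, edgeR adjusted p = 0.00188). Between the CD115+ subsets it was lower in CD115+Ly6C+ (-1.35, SE 0.32, edgeR adjusted p = 0.0356). That call was lost without any one of the 4 CD115+ libraries, with adjusted p between 0.0565 and 0.148, and in a fit of those subsets alone (0.0946).

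Cd247 encodes CD3ζ, the chain with the ITAM motifs on which ZAP-70 docks (chr1:165779952-165871153, plus strand). It was at 9.3 and 7.06 FPKM in CD115-Ly6C- and at 0 and 0.07 FPKM in CD115+Ly6C+, against 0.48 and 0.87 FPKM in CD115+Ly6C-. In counts, it had 256 and 202 for CD115-Ly6C-, 0 and 2 for CD115+Ly6C+, against 14 and 25 for CD115+Ly6C-. CD115-Ly6C- held most Cd247 counts, and the subsets did not overlap. Over CD115+Ly6C-, Cd247 rose in CD115-Ly6C- with a log2 difference of 3.47 (SE 0.47, edgeR adjusted p = 0.00314). Over CD115+Ly6C+ it rose (edgeR adjusted p = 1.25e-04), and the ratio of its scaled counts was 198, with an exact 95% interval of 54.6 to 1640 that covers counting error only. Cd247 fell in CD115+Ly6C+ to 2 counts in all, against 39 in CD115+Ly6C- (ratio 0.0561, exact 95% interval 0.00657 to 0.217, edgeR adjusted p = 0.0229). Adjusted p for this fall was 0.0549 and 0.0849 without the first or second CD115+Ly6C- library and 0.085 without the first CD115+Ly6C+ library, and 0.0621 with limma on log2(FPKM + 1). The last exons of Cd247 share 3007 bases with exons of Pou2f1 on the opposite strand, and the strandedness of the libraries is not stated. Pou2f1, a widely expressed transcription factor gene, had 379 and 307 counts for CD115-Ly6C-, 202 and 137 for CD115+Ly6C+, against 268 and 232 for CD115+Ly6C-. Its part in the Cd247 values was not tested. Cd247 also shares 206 exon bases with Gm16565, a noncoding gene on the same strand. Lck and Lat share 25 and 75 exon bases with the microRNA genes Mir8119 and Mir7058.

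Promoter sequences of Lck, Zap70 and Cd247, 3 genes that were high in the same subset, were picked because each holds the same short motif. That motif was among 11 searched, and others were shared too, as given below. RefSeq, on GRCm38.p6, gave 14 windows of 250 bases before a transcript start for 9 of the 10 genes (Blk had no entry). Capitals mark the E-box CAGGTG. E proteins, transcription factors of early lymphocytes and plasmacytoid dendritic cells, are among the factors that bind such sites. The other motifs searched were a second E-box (CAGCTG), a PU.1 type site (GAGGAA), an ETS site (CCGGAA), a Runx site (TGTGGT), an Ikaros site (TGGGAA), a Tcf site (CTTTGA), the GC box (GGGCGG), the TATA box (TATAAA) and gapped forms of the EBF and NF-kB sites. All were searched on both strands, and no match of CAGGTG overlapped a match of another. The Lck window precedes the more downstream of its 2 starts (chr4:129558392-129558622, minus strand, with the last 19 bases, exon in GENCODE M21, left off). The Zap70 window precedes the first of its 3 starts (chr1:36761548-36761797, plus strand). The Cd247 window is chr1:165788431-165788680 (plus strand). The Btk window is given as that of a gene with little difference between subsets and no match of CAGGTG (chrX:134583141-134583390, minus strand). Each runs 5′ to 3′ and ends at the start of the transcript, or at the exon for Lck.
Lck: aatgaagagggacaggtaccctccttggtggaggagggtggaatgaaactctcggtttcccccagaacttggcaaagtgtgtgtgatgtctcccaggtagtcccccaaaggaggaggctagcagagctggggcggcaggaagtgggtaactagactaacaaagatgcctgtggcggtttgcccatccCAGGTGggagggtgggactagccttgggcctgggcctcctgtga
Zap70: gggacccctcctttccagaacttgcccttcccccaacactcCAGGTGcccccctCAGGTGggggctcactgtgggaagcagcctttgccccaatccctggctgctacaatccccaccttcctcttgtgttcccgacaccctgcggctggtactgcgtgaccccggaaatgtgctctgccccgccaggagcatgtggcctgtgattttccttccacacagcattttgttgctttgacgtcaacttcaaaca
Cd247: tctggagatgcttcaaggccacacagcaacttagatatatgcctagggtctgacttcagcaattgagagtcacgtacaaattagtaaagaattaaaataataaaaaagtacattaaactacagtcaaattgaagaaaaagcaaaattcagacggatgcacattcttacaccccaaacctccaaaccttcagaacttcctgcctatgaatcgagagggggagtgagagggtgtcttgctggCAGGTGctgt
Btk: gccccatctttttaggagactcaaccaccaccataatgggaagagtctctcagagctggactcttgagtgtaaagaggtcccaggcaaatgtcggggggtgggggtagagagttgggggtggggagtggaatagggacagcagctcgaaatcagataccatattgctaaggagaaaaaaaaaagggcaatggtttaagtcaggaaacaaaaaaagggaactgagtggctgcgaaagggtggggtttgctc

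Counted from the transcript start, the E-box began at position -63 in the Lck window, at positions -209 and -196 in that of Zap70 and at position -10 in that of Cd247. It was present in 7 of the 14 windows, which belonged to 5 of the 9 genes: Lck, Zap70, Cd247, Blnk and Syk. The Blnk window and the first Syk window lie wholly within exons of these genes in GENCODE M21, and several others do in part. Over the whole RefSeq table, 17.2% of windows and 19.4% of genes held CAGGTG. The windows of Lat, Lax1, Btk and Fyn did not hold these letters. Syk, which differed little between subsets, also had it, at position -200 of its first window and -144 of its second. Other motifs were shared as well. The PU.1 type site was found in a window of Lck, Zap70, Lat, Lax1 and Syk, as many genes as held CAGGTG. Over the whole RefSeq table, 23.3% of windows held that site. The Ikaros site was found for Lck, Zap70, Lat and Btk, and the Runx site for Lck, Zap70 and Lax1. The Tcf site was found for Zap70, Syk and Fyn, the NF-kB form for Lck, Zap70 and Fyn, and the GC box for Lck and Fyn. The windows also differed in CpG dinucleotides. The first window of Syk had 27 and that of Fyn had 21, against a median of 6 over all windows of the table. The windows of the other 7 genes held from 1 to 7. A match or its absence is a description of the letters and shows neither binding nor regulation.

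Blk, a Src family kinase of B cells and of some early lymphocytes (chr14:63372837-63417187, minus strand), was at 11.2 and 9.54 FPKM in CD115-Ly6C- and at 0.48 and 0.41 FPKM in CD115+Ly6C+, against 1.01 and 1.08 FPKM in CD115+Ly6C-. The CD115-Ly6C- libraries stood far above the other 4, which lay within a narrow range but did not overlap by subset. Blk rose in CD115-Ly6C- over CD115+Ly6C+ (log2 difference 4.33, SE 0.27, edgeR adjusted p = 2.18e-05) and over CD115+Ly6C- (3.19, SE 0.25, edgeR adjusted p = 2.75e-04). Between the CD115+ subsets the log2 fold change in CD115+Ly6C+ was -1.14 (SE 0.28, edgeR adjusted p = 0.0411). That call was lost without any one of the 6 libraries, with adjusted p between 0.0695 and 0.147, and held in 7 of 16 alternatives in all.

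Blnk, the scaffold that SYK phosphorylates below the B cell receptor (chr19:40928927-40994221, minus strand), had the profile nearest to that of Lck among the other 9 genes. It was at 38.6 and 44.5 FPKM in CD115-Ly6C- and at 2.18 and 2.55 FPKM in CD115+Ly6C+, against 13.02 and 12.54 FPKM in CD115+Ly6C-. Again the 3 subsets did not overlap. Blnk rose in CD115-Ly6C- over CD115+Ly6C+ (log2 difference 3.94, SE 0.18, edgeR adjusted p = 5.38e-06) and over CD115+Ly6C- (1.58, SE 0.15, edgeR adjusted p = 8.66e-04). It fell within the CD115+ cells, in CD115+Ly6C+ by 2.36 on the log2 scale over CD115+Ly6C- (SE 0.17, edgeR adjusted p = 3.98e-04).

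Btk, the Tec family kinase whose loss blocks B cell development (chrX:134542334-134583628, minus strand), was strongly expressed in all 6 libraries. It was at 80.1 and 67.5 FPKM in CD115-Ly6C- and at 51.5 and 44.5 FPKM in CD115+Ly6C+, against 48.6 and 57.2 FPKM in CD115+Ly6C-. The CD115-Ly6C- libraries were highest, and those of the CD115+ subsets overlapped. Btk rose in CD115-Ly6C- over CD115+Ly6C+ with a log2 difference of 0.43 (SE 0.13, edgeR adjusted p = 0.0276). That call was lost without the second CD115+Ly6C+ library (adjusted p = 0.157), without the first CD115-Ly6C- library (0.169) and with the trend on transcript length removed (0.131). Over CD115+Ly6C- the log2 difference was 0.36 (SE 0.13, edgeR adjusted p = 0.0902). In CD115+Ly6C+ over CD115+Ly6C- that difference was -0.07, with a 95% interval of -0.36 to 0.22 (edgeR adjusted p = 0.765).

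Syk, the kinase that docks on ITAM chains in B cells and myeloid cells (chr13:52582610-52648792, plus strand), was at 27.9 and 23.8 FPKM in CD115-Ly6C- and at 13.9 and 11.8 FPKM in CD115+Ly6C+, against 12.97 and 16.19 FPKM in CD115+Ly6C-. As with Btk, the CD115-Ly6C- libraries lay above the rest and the CD115+ subsets overlapped. Syk rose in CD115-Ly6C- over CD115+Ly6C+ (log2 difference 0.81, SE 0.14, edgeR adjusted p = 0.00273). It also rose over CD115+Ly6C- (0.70, SE 0.14, edgeR adjusted p = 0.0147), with adjusted p of 0.111 without the first CD115+Ly6C- library and 0.105 without the first CD115-Ly6C- library. The difference between the CD115+ subsets was -0.11, with a 95% interval of -0.43 to 0.22 (edgeR adjusted p = 0.662).

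Fyn, the Src family kinase used by T cells, B cells and many other cells (chr10:39369743-39565381, plus strand), was called in no comparison. It was at 3.65 and 4.22 FPKM in CD115-Ly6C- and at 2.55 and 1.66 FPKM in CD115+Ly6C+, against 3.46 and 2.79 FPKM in CD115+Ly6C-. In FPKM the libraries were in the same order of subsets as for Lck, but over a far narrower range. In CPM it was at 11.2 and 13.2 in CD115-Ly6C-, against 11.6 and 9.39 in CD115+Ly6C-, and these overlapped. In CD115-Ly6C- the log2 difference was 0.71 over CD115+Ly6C+ (SE 0.27, edgeR adjusted p = 0.0632) and 0.21 over CD115+Ly6C- (SE 0.26, edgeR adjusted p = 0.618). The first was called without the first CD115+Ly6C+ library (log2 difference 1.04, adjusted p = 0.0345). In CD115+Ly6C+ over CD115+Ly6C- it was -0.50 (SE 0.27, edgeR adjusted p = 0.262).

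Lax1, a membrane adaptor related in structure to LAT that restrains antigen receptor signaling (chr1:133679017-133693022, minus strand), had the largest rise of the 10 over CD115+Ly6C-. It was at 22.9 and 17.1 FPKM in CD115-Ly6C- and at 0.1 and 0.42 FPKM in CD115+Ly6C+, against 0.59 and 1.24 FPKM in CD115+Ly6C-. Its counts were 905 and 705 for CD115-Ly6C-, 4 and 16 for CD115+Ly6C+, against 25 and 51 for CD115+Ly6C-. The libraries of each CD115+ subset differed more than for most genes, by 1.69 on the log2 scale within CD115+Ly6C+ and by 0.99 within CD115+Ly6C-, against medians of 0.21 and 0.2 over all genes. Lax1 rose in CD115-Ly6C- over CD115+Ly6C+ (log2 difference 6.10, SE 0.50, edgeR adjusted p = 6.98e-05) and over CD115+Ly6C- (4.32, SE 0.42, edgeR adjusted p = 8.66e-04). Between the CD115+ subsets the log2 difference was -1.78 (SE 0.57, edgeR adjusted p = 0.0841).

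**Figure D2:**
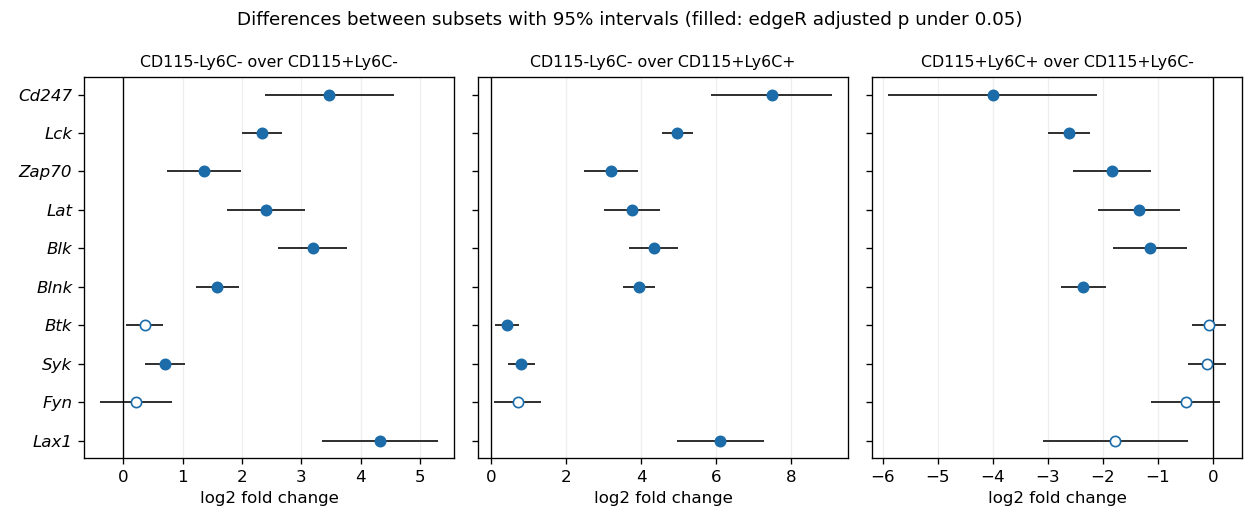
Log2 fold changes of the 10 genes in the 3 comparisons, with 95% intervals, filled where the edgeR adjusted p was under 0.05. Lax1 and Cd247 show the largest rises in CD115-Ly6C- over CD115+Ly6C-, at 4.32 and 3.47, and Btk and Syk lie near 0 in the comparison of the CD115+ subsets, at -0.07 and -0.11.

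The rank of the genes by FPKM changed with the subset. In CD115-Ly6C-, Lck and Btk led and overlapped, then came Blnk, Syk, Lax1 and Lat (these last overlapping), Blk, Cd247 and Zap70 (overlapping), and Fyn. In CD115+Ly6C+, Btk led and Syk came next, then Blnk, Lck and Fyn, which overlapped, and Cd247 was last. In CD115+Ly6C-, Btk led, Syk and Lck overlapped below it, Blnk followed, and Blk, Lax1 and Cd247 overlapped at the bottom. Cd247, Lck, Zap70 and Lat made up 38.8% and 39.1% of the summed FPKM of the 10 genes in CD115-Ly6C-, 5.49% and 6.16% of it for CD115+Ly6C+, against 19.5% in both CD115+Ly6C- libraries. Blk, Blnk, Btk and Syk made up 52.4% and 53.1% for CD115-Ly6C-, 91.0% and 90.7% for CD115+Ly6C+, against 76.4% and 76.9% in CD115+Ly6C-.

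The chains that lie upstream of these kinases did not share one pattern. Cd3e, Cd3g and Cd3d, the chains that pair with CD3ζ in the T cell receptor, had 1, 5 and 18 counts in all over the 6 libraries. Both Cd3e and Cd3g were at 0 in the 2 CD115-Ly6C- libraries, where Cd247 and Lck were highest, and Cd3d had 1 count in each. The constant regions of antigen receptors were not analysed here. Cd79a, an ITAM chain of the B cell receptor, rose in CD115-Ly6C-, with 13.04 and 10.26 FPKM there and 1.01 and 0.96 FPKM in CD115+Ly6C+, against 0.18 and 1.33 FPKM in CD115+Ly6C- (edgeR adjusted p = 0.00305 over CD115+Ly6C+ and 0.0063 over CD115+Ly6C-). Its partner Cd79b was strongly expressed in all subsets, with 77.7 and 81.0 FPKM in CD115-Ly6C- and 80.2 and 87.8 FPKM in CD115+Ly6C+, against 82.8 and 78.4 FPKM in CD115+Ly6C-. It was called in none of the 3 comparisons. Of 8 genes of the B cell receptor complex and coreceptors tested, 2 rose (Cd79a and Vpreb2) and 1 fell (Cd22, edgeR adjusted p = 0.0243) in CD115-Ly6C- over CD115+Ly6C+, where 20.1% and 19.2% of all genes did so. Over CD115+Ly6C-, Cd79a and Vpreb2 rose and 0 fell, where 8.43% and 6.78% of all genes did so. Vpreb2, a surrogate light chain gene, passed the filter only through CD115-Ly6C-.

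Of the 3 ITAM chain and related adaptor genes of innate receptors, Fcer1g and Tyrobp ran the other way from Cd247. The third, Hcst, which encodes DAP10, was at 37.9 and 36.7 FPKM in CD115-Ly6C- and at 34.6 and 33.9 FPKM in CD115+Ly6C+, against 26.6 and 25.3 FPKM in CD115+Ly6C-, and was called in none of the comparisons. Fcer1g, the γ chain of Fc receptors, was at 335 and 416 FPKM in CD115-Ly6C- and at 1017 and 1159 FPKM in CD115+Ly6C+, against 675 and 698 FPKM in CD115+Ly6C-. Tyrobp, which encodes the adaptor DAP12, was at 801 and 811 FPKM in CD115-Ly6C- and at 2228 and 2160 FPKM in CD115+Ly6C+, against 955 and 1212 FPKM in CD115+Ly6C-. Fcer1g and Tyrobp had their lowest values where Cd247 had its highest, and both were far above Cd247 per length in every library. In CD115-Ly6C- over CD115+Ly6C+, the log2 difference was -1.73 for Fcer1g (SE 0.14, edgeR adjusted p = 7.65e-05) and -1.64 for Tyrobp (SE 0.13, edgeR adjusted p = 6.11e-05). Both also fell over CD115+Ly6C- (edgeR adjusted p = 0.00373 and 0.0277), which for Tyrobp was lost without the second CD115+Ly6C- library (0.111) or either CD115-Ly6C- library (0.161 and 0.0768), under library totals (0.0622) and with limma (0.078 and 0.0824). Both rose in CD115+Ly6C+ over CD115+Ly6C- (0.0171 and 0.00241), which for Fcer1g was lost without either CD115+Ly6C- library (0.121 and 0.0754) or the second CD115+Ly6C+ library (0.0922), and with the trend on transcript length removed (log2 difference 0.31 against 0.75, adjusted p = 0.24).

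Relatives within the kinase families also took different courses. Of 8 other Src and Tec kinases tested, 3 rose and 3 fell in CD115-Ly6C- over CD115+Ly6C+, where 20.1% and 19.2% of all genes did so. Over CD115+Ly6C-, 3 rose and 1 fell, where 8.43% and 6.78% of all genes did so. Src, among those that rose in both, passed the filter only through CD115-Ly6C-. Lyn, the main Src family kinase of B cells and myeloid cells, varied less than Lck, with 46.4 and 45.1 FPKM in CD115-Ly6C- and 60.7 and 52.5 FPKM in CD115+Ly6C+, against 49.4 and 46.4 FPKM in CD115+Ly6C-. It fell in CD115-Ly6C- over CD115+Ly6C+ (log2 difference -0.50, SE 0.11, edgeR adjusted p = 0.00728). Fgr, another myeloid member of the family, rose in CD115-Ly6C-, with 9.74 and 11.1 FPKM there and 3.44 and 2.87 FPKM in CD115+Ly6C+, against 3.68 and 3.9 FPKM in CD115+Ly6C- (edgeR adjusted p = 3.97e-04 over CD115+Ly6C+ and 0.003 over CD115+Ly6C-). Among Tec kinases, Tec was higher in CD115-Ly6C-, at 22.0 and 22.7 FPKM, with 10.7 and 9.44 FPKM in CD115+Ly6C+, against 13.8 and 14.9 FPKM in CD115+Ly6C- (edgeR adjusted p = 8.41e-04 over CD115+Ly6C+). Lat2, a LAT-like adaptor of B cells and myeloid cells, was between 243 and 273 FPKM in all 6 libraries and was called in none of the comparisons.

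**Figure D3:**
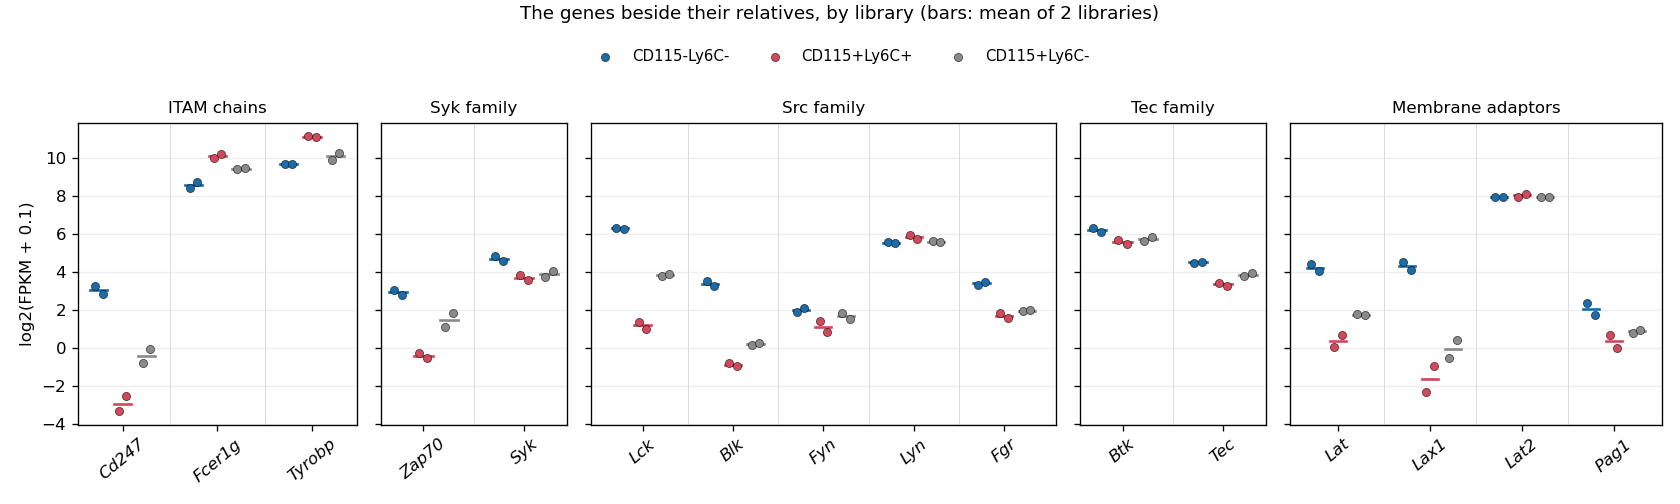
Expression of Cd247, Zap70, Syk, Lck, Blk, Fyn, Btk, Lat and Lax1 beside relatives of the same family or kind, as log2(FPKM + 0.1) in each library, with bars for the mean of 2. Fcer1g and Tyrobp are lowest in CD115-Ly6C-, where Cd247 and Lck are highest, and all libraries of Lat2 lie within 243 to 273 FPKM.

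With these relatives included, 92 genes on 7 lists of the same pathway were tested, apart from the 10 genes themselves. In CD115-Ly6C- over CD115+Ly6C-, 25 rose and 4 fell, where 8.43% and 6.78% of all genes tested rose and fell. The split was 27 and 3 when scaled by library totals, and 19 and 8 with the trend on transcript length removed. Over CD115+Ly6C+, 35 rose and 18 fell, where 20.1% and 19.2% of all genes did so, with 42 and 12 under library totals. In CD115+Ly6C+ over CD115+Ly6C-, 11 rose and 10 fell, where 5.26% and 4.34% of all genes did so, with 9 and 14 under library totals. Leaving out 1 library took the first total of 29 to as few as 10 (without the first CD115-Ly6C- library), 11 and 16 (without the first or second CD115+Ly6C- library) and 18 (without the second CD115-Ly6C- library). The last total of 21 came to 8 or 11 without any one of the 4 CD115+ libraries.

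Of 5 genes of the T cell receptor complex and coreceptors tested, 4 rose and 0 fell in CD115-Ly6C- over CD115+Ly6C+, where 20.1% and 19.2% of all genes did so. Over CD115+Ly6C-, 3 rose and 0 fell, where 8.43% and 6.78% of all genes did so. Cd4 passed the filter only through CD115-Ly6C-. Cd6, a surface receptor that binds activated leukocyte adhesion molecule, was at 8.98 and 9.77 FPKM in CD115-Ly6C- and at 0.9 and 0.69 FPKM in CD115+Ly6C+, against 1.75 and 1.67 FPKM in CD115+Ly6C- (edgeR adjusted p = 4.32e-05 over CD115+Ly6C+). Cd28, the T cell costimulatory receptor, was at 9.15 and 8.86 FPKM in CD115-Ly6C- and at 3.24 and 2.42 FPKM in CD115+Ly6C+, against 4.64 and 4.55 FPKM in CD115+Ly6C- (edgeR adjusted p = 4.10e-04 over CD115+Ly6C+). Cd4 and Cd5 were also higher over CD115+Ly6C+, at edgeR adjusted p of 9.74e-04 and 0.00492.

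Of 22 other adaptors tested, 8 rose and 5 fell in CD115-Ly6C- over CD115+Ly6C+, where 20.1% and 19.2% of all genes did so, so that the share that fell was near that of all genes. Over CD115+Ly6C-, 5 rose and 0 fell, where 8.43% and 6.78% of all genes did so. Sla2, an adaptor that damps T and B cell receptor signaling, was at 28.2 and 25.4 FPKM in CD115-Ly6C- and at 0.76 and 0.71 FPKM in CD115+Ly6C+, against 3.38 and 3.44 FPKM in CD115+Ly6C- (edgeR adjusted p = 6.33e-06 over CD115+Ly6C+ and 1.79e-04 over CD115+Ly6C-). Dapp1 and Pik3ap1, adaptors linked to phosphoinositide 3-kinase in B cells, rose by log2 fold changes of 0.80 and 1.07 over CD115+Ly6C+ (SE 0.11 and 0.15, edgeR adjusted p = 9.04e-04 and 8.77e-04). Lcp2, which encodes SLP-76, the LAT partner of T cells, and Grap2, its GADS partner, fell over CD115+Ly6C+ (log2 difference -0.60, SE 0.15, edgeR adjusted p = 0.012 and -0.82, SE 0.27, edgeR adjusted p = 0.0411). The call on Lcp2 was lost without the second CD115+Ly6C+ library (0.083) or the first CD115-Ly6C- library (0.0843), and that on Grap2 without any one of the 4 libraries compared (0.1 to 0.159), under library totals (0.0948) and with limma (0.146 and 0.081).

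Of 27 downstream effectors tested, 9 rose and 2 fell in CD115-Ly6C- over CD115+Ly6C+, and 7 rose and 0 fell over CD115+Ly6C-, against the same shares of all genes. Prkcq, the protein kinase C isoform of the T cell synapse, was at 5.23 and 4.62 FPKM in CD115-Ly6C- and at 0.02 and 0.05 FPKM in CD115+Ly6C+, against 0.54 and 0.72 FPKM in CD115+Ly6C- (log2 difference 2.84, SE 0.33, edgeR adjusted p = 0.00182 over CD115+Ly6C-). Plcg1, the phospholipase bound by LAT, rose in CD115-Ly6C- by 2.07 on the log2 scale over CD115+Ly6C+ (SE 0.25, edgeR adjusted p = 4.35e-04). Plcg2, its B cell and myeloid relative, rose by 0.56 in the same comparison (SE 0.11, edgeR adjusted p = 0.00482), which was lost with the trend on transcript length removed (0.194). Prkcd, a widely expressed protein kinase C isoform, fell over CD115+Ly6C+ (log2 difference -0.85, SE 0.12, edgeR adjusted p = 0.0011).

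Of 19 negative regulators tested, 9 rose and 5 fell in CD115-Ly6C- over CD115+Ly6C+, where 20.1% and 19.2% of all genes did so, so that the share that fell was near that of all genes. Over CD115+Ly6C-, 5 rose and 1 fell, where 8.43% and 6.78% of all genes did so, and the share that fell was again near that of all genes. Cd72, an inhibitory coreceptor of B cells, was at 102 and 107 FPKM in CD115-Ly6C- and at 11.2 and 11.8 FPKM in CD115+Ly6C+, against 55.9 and 47.3 FPKM in CD115+Ly6C- (edgeR adjusted p = 6.18e-06 over CD115+Ly6C+). Dok2, an adaptor that recruits inhibitory enzymes, was at 43.5 and 38.2 FPKM in CD115-Ly6C- and at 1.73 and 2.94 FPKM in CD115+Ly6C+, against 4.48 and 5.19 FPKM in CD115+Ly6C- (edgeR adjusted p = 2.30e-05 over CD115+Ly6C+). Its relative Dok3 had the opposite order, at 21.9 and 23.6 FPKM in CD115-Ly6C- and 75.5 and 77.5 FPKM in CD115+Ly6C+, against 33.1 and 45.1 FPKM in CD115+Ly6C- (edgeR adjusted p = 5.93e-05 over CD115+Ly6C+). Pirb, an inhibitory receptor of myeloid and B cells, also fell over CD115+Ly6C+ (log2 difference -2.06, SE 0.19, edgeR adjusted p = 1.08e-04).

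**Figure D4:**
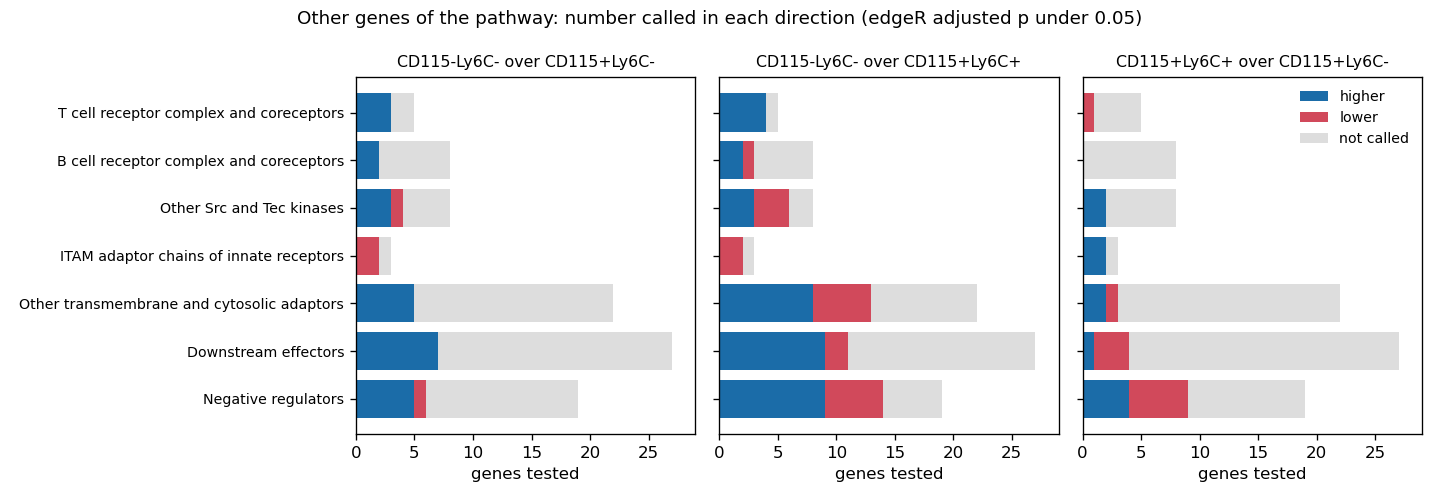
Number of genes on each of 7 pathway lists that were called higher (blue), called lower (red) or not called (grey) in the 3 comparisons, with the bar length giving the genes tested. The ITAM chains of innate receptors have 2 genes lower and 0 higher in CD115-Ly6C-, and the T cell coreceptors have 4 higher and 0 lower in CD115-Ly6C- over CD115+Ly6C+.

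Genes with a profile most like that of each of the 10 were found by the distance between centred log2 CPM over the 6 libraries. Gimap1, a GTPase of lymphocytes, was nearest to Lck at a distance of 0.17, and averaged 74.8 FPKM in CD115-Ly6C- and 1.94 FPKM in CD115+Ly6C+, against 13.6 FPKM in CD115+Ly6C-. Dntt, the polymerase that adds bases at antigen receptor joints, was nearest to Cd247 at 0.63, followed by Prkcq at 0.73. Clnk, an adaptor of the same family as Blnk, was the third nearest to Blnk at 0.5, after Angpt1 and Il18r1. Icos, a costimulatory receptor of T cells, was the third nearest to Blk at 0.67. For Btk and Syk the nearest were Rbm10, an RNA-binding protein gene, at 0.07, and Irf1, an interferon-regulated transcription factor gene, at 0.06. Among the 10 genes, Btk and Syk were nearest to each other, at 0.43, and of the 7 that differed widely, Zap70 and Blnk were, at 0.98. These distances describe the 6 libraries and carry no test.

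Markers of several other cell types also differed between the subsets. The counts below stand beside shares of all genes tested. In CD115-Ly6C- over CD115+Ly6C+, 20.1% of all genes rose and 19.2% fell, and over CD115+Ly6C-, 8.43% rose and 6.78% fell. The 13 early lymphoid markers, Dntt, Il7r and the Rag genes among them, summed to 3690 and 3280 CPM in CD115-Ly6C- and to 181 and 191 CPM in CD115+Ly6C+, against 515 and 624 CPM in CD115+Ly6C-. Of the 11 tested, 10 rose in CD115-Ly6C- over CD115+Ly6C- and 9 over CD115+Ly6C+, but 4 of the 11 (Rag1, Ebf1, Tcf7 and Gata3) passed the filter only through CD115-Ly6C-, so that their being tested depended on the rise. Monocyte markers summed to 1050 and 1340 CPM in CD115-Ly6C- and to 7460 and 8030 CPM in CD115+Ly6C+, against 3060 and 3310 CPM in CD115+Ly6C-. All 11 monocyte markers tested fell in CD115-Ly6C- over CD115+Ly6C+, as did all 15 neutrophil granule markers, which summed to 3100 and 3230 CPM in CD115-Ly6C- and to 9460 and 9960 CPM in CD115+Ly6C+, against 5700 and 5510 CPM in CD115+Ly6C-. Csf1r and Ly6c2, which encode sorted proteins, are on the monocyte list, and Fcgr1 of that list passed the filter only through CD115+Ly6C+. Mature T cell markers summed to 71.5 and 70.9 CPM in CD115-Ly6C- and to 20.5 and 15.1 CPM in CD115+Ly6C+, against 28.0 and 28.4 CPM in CD115+Ly6C-. Every gene of that list is also on the list of the T cell receptor complex and coreceptors above. Of the 9 T cell markers with reads in any library, Cd3e, Cd3g and Cd8b1 were at 0 in both CD115-Ly6C- libraries. B cell markers summed to 87.6 to 104 CPM in every library, of which Cd79b made up 76.6 to 102 CPM. Of the 4 tested, Cd79a and Ebf1 rose in CD115-Ly6C- in both comparisons and 0 fell, Ebf1 having passed the filter only through that subset. Ms4a1 and Pax5, which define mature and committed B cells, had 21 and 2 counts over all 6. Plasmacytoid dendritic cell markers summed to 3030 and 3290 CPM in CD115-Ly6C- and to 4840 and 4500 CPM in CD115+Ly6C+, against 3240 and 3710 CPM in CD115+Ly6C-. That sum includes Ly6c2, which encodes a sorted protein, at 41.8 and 61.8 CPM in CD115-Ly6C- and 1440 and 1400 CPM in CD115+Ly6C+, against 121 and 188 CPM in CD115+Ly6C-. By count, 8 of 13 tested rose, as the 7 genes did, and 3 fell in CD115-Ly6C- over CD115+Ly6C+ (median log2 fold change 1.32). The share that fell was near that of all genes. Over CD115+Ly6C-, 7 rose and 2 fell (1.05). Natural killer and innate lymphoid markers summed to 88.2 to 126 CPM. Of 7 tested, 5 rose and 1 fell in CD115-Ly6C- over CD115+Ly6C+, and 3 rose and 1 fell over CD115+Ly6C-, with Prf1 and Gzma tested only through CD115-Ly6C- and CD115+Ly6C+ counts. Klrk1, which fell in both, was at 22.1 and 24.9 CPM in CD115-Ly6C- and at 65.6 and 85.3 CPM in CD115+Ly6C+, against 49.4 and 49.3 CPM in CD115+Ly6C-. Il2rb rose in CD115-Ly6C- over both (edgeR adjusted p = 0.00858 over CD115+Ly6C+ and 0.0063 over CD115+Ly6C-). Erythroid and megakaryocyte markers summed to 6.53 to 23.6 CPM over the 6 libraries. The markers of common dendritic cell progenitors, Flt3, Kit and Csf1r among them, were present in all subsets and summed to 3850 to 4410 CPM in every library. That sum covers changes in both directions. Of 8 tested, 2 rose and 4 fell in CD115-Ly6C- over CD115+Ly6C+, and 2 rose and 2 fell over CD115+Ly6C-. Csf1r encodes CD115, by which the cells were sorted. The part of other cell types in the differences of the 7 genes was not tested.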

How the data were processed

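Libraries were polyA-selected and amplified by PCR, per the labels' protocols, with no mention of molecular identifiers, so count intervals and floors cover counting error only. Reads were processed with Bowtie2 and RSEM on mm10, per the submitters' processing notes, with tool versions not given in the sources used here. The authors deposited RSEM expected counts, which are estimated, FPKM and a transcript length per gene and sample, per the file headers. A gene missing from a sample's table was taken as 0.

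Expected counts were rounded and tested with edgeR 4.0.16 in R 4.3.3: filterByExpr by subset (minimum count 10, minimum total 15), TMM scaling, 1 fit of all 6 libraries with 1 coefficient per subset, and the quasi-likelihood F test. The scripts were tested on simulated data. P-values were adjusted over 12127 genes, with a threshold of 0.05. The SE is the log2 fold change divided by the square root of F. The common dispersion was 0.0231, with 3 residual degrees of freedom. DESeq2 1.42.0 and limma 3.58.1 on log2(FPKM + 0.1) and log2(FPKM + 1) were alternatives. Each subset has 2 libraries with 17961541 to 19450329 expected counts.

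The 10 genes, the lists and the tests were chosen with earlier results of these data known. Named pathway genes were up to 4 per list with the smallest adjusted p among those called, plus fixed receptor chains and adaptors. Lists are described by counts, with no set test. Gene positions and promoters are from RefSeq on GRCm38.p6, the assembly of mm10. Exon overlaps are from GENCODE M21. Some genes of the pathway lists are not reported here by name.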

Additional observations from a re-analysis of the deposited data

How the results depend on the processing

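Of 480 values of the 10 genes under alternatives, 439 kept their direction and side of the threshold, 27 lost the call, 9 gained it and 5 changed sign. Called in all 16 alternatives were Lck, Lat, Cd247, Lax1, Blk and Blnk in CD115-Ly6C- over CD115+Ly6C-, these with Zap70 and Syk over CD115+Ly6C+, and Lck and Blnk in CD115+Ly6C+ over CD115+Ly6C-. None of the 5 sign changes was called. They were Fyn in CD115-Ly6C- over CD115+Ly6C- with the length trend removed (-0.0), and, in CD115+Ly6C+ over CD115+Ly6C-, Syk with that trend removed (0.04) and without the second CD115+Ly6C- library (0.05), and Btk without that library (0.04) or the second CD115+Ly6C+ library (0.01). Without 1 library, Btk there ran from -0.18 to 0.04 and Syk from -0.25 to 0.05. Leaving out 1 library gave 3 to 5 of the 10 genes called in CD115+Ly6C+ over CD115+Ly6C-, 6 to 8 in CD115-Ly6C- over CD115+Ly6C- and 8 to 10 over CD115+Ly6C+. Pathway list genes called were then 8 to 20, 10 to 31 and 40 to 54 in the same order, and all genes called were 220 to 1139 (1164 with all libraries), 485 to 1744 (1844) and 2983 to 4632 (4768). The first of these counts was 1810 with no filter on low counts and 686 with the length trend removed; the cause was not tested. Scaling by library totals moved the median log2 fold change of all genes to 0.14 in CD115-Ly6C- over CD115+Ly6C- and 0.223 over CD115+Ly6C+, and removing the length trend moved it to -0.128 and -0.097. In CD115-Ly6C- over CD115+Ly6C-, the all-gene split of 1022 higher and 822 lower became 1383 and 479 under library totals and 784 and 1658 with the length trend removed. In CD115+Ly6C+ over CD115+Ly6C-, Lax1 was called with no filter on low counts (adjusted p = 0.0073). In CD115-Ly6C-, Btk over CD115+Ly6C- and Fyn over CD115+Ly6C+ were called under library totals (0.044 and 0.0281) and by limma.

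The labels do not say whether the replicate numbers pair libraries. Differences between numbers correlated at 0, -0.01 and 0.15 between subsets, which cannot decide it, since paired libraries need not share a shift over all genes. With the replicate number as a block, 8, 9 and 4 of the 10 genes were called in CD115-Ly6C- over CD115+Ly6C-, CD115-Ly6C- over CD115+Ly6C+ and CD115+Ly6C+ over CD115+Ly6C-, against 8, 9 and 6 without it, and Lat and Blk lost their call in the last (adjusted p = 0.051 and 0.0559). In the same order, 1503, 4550 and 965 of all genes were called with the block, against 1844, 4768 and 1164 without it. With 2 libraries per subset, 0 to 16 counts of Cd247 or Lax1 per CD115+Ly6C+ library limit what can be said of their differences between the CD115+ subsets.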
